A study of Mus musculus with 5 samples.

Results

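The genes described here are 32 members of the NF-kB response, chosen by name as genes that NF-kB signalling is known to induce, genes that switch it off again and the subunits themselves. All 32 were among the 21995 genes of the count matrix. They were read in neutrophils sorted from C57BL/6 mice, a common inbred laboratory strain, labelled as steady state (specific-pathogen-free). Young mice (10 weeks by the sample labels, 8 weeks by the design text) and mice 20 months old gave bone marrow, blood, lung, liver, spleen and intestine, and live (DAPI-) cells carrying CD11b and Ly6G were sorted from them. The experiment was run on 2 occasions, each with its own BD Rhapsody cartridge, which captures single cells in microwells and tags each mRNA with a unique molecular identifier (UMI). These cartridges are called pools YO1 and YO2. Each pool mixes both ages and more than 1 tissue, and the cell barcodes carry the pool alone, so ages and tissues were not compared here, and only RNA was measured, not the activity of the pathway.

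NF-kB is a family of dimeric transcription factors held in the cytoplasm by IkB proteins until a signal from Toll-like, interleukin-1 or TNF receptors leads to IkB degradation. Freed dimers enter the nucleus and switch on cytokines, adhesion molecules and survival genes. They also switch on their own brakes, such as the IkB genes and the ubiquitin-editing enzyme A20, so that the response limits itself. In neutrophils the pathway is known for chemokine release and for prolonging the life of the cell.

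Cells were placed in classes by fixed thresholds on UMIs of genes that are not members. Cycling cells had at least 2 UMIs of Mki67 and Top2a. Immature cells had at least 5 UMIs of the secondary granule gene Ltf, or at least 10 UMIs of the granule gene Ngp with Ltf below 5. Mature neutrophils had at least 2% of their UMIs in the calprotectin genes S100a8 and S100a9 and fewer than 3 UMIs of Ngp. They were split by the summed UMIs of Il1a, which encodes interleukin-1 alpha, and Cxcl2, a chemokine that draws neutrophils, into 0, 1-2 and 3 or more. Both are themselves known NF-kB targets, and Cxcl2 gave 99.9% of these UMIs in YO1 and 98.8% in YO2 in the cells with 3 or more. Monocytes had at least 3 UMIs of Csf1r, Ccr2, F13a1, Treml4, Ace and Cx3cr1, and macrophages at least 5 of C1qa, C1qb and C1qc. These classes are ranges of counts, not cell types proven by another measure, and cells with 3 or more UMIs of another lineage's markers entered none.

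The filter kept 19505 cells in YO1 and 17215 in YO2, with medians of 1231 and 1454 UMIs. Mature cells with Il1a+Cxcl2 of 0, 1-2 and 3 or more numbered 6204, 1420 and 1956 in YO1 and 5892, 1360 and 2140 in YO2. Their median UMIs climbed with the class, from 966 through 1034 to 1122.5 in YO1 and from 1258 through 1379 to 1544.5 in YO2. Cycling cells numbered 661 and 80, Ltf-high immature cells 2100 and 436, and Ngp-positive immature cells 418 and 32. Monocytes numbered 1834 and 1493, and macrophages 274 and 479. The cycling cells of the pools were unlike each other: progenitor RNA such as Elane, an azurophil granule protease, stood at 1400.5 CPM in YO1 and 1.94 CPM in YO2. The macrophage class also carried Ngp, at 6232 CPM in YO1 and 706 CPM in YO2. A further 406 cell-label numbers occurred in both pools. Levels are CPM, a gene's UMIs scaled to the same total of UMIs in each class and pool, with exact Poisson 95% intervals that cover counting error only. They are not corrected for gene length, so they are compared between classes and not between genes.

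The DNA upstream of listed starts is shown first for 6 of the members that rose in mature cells with Cxcl2 RNA. These 6 are shown because they held letters known to bind NF-kB, and not for the size of their rise. Of the 32 members, 24 had an entry in the RefSeq promoter table (build GRCm38.p6), and the 250 bases upstream of each listed start were searched on both strands, overlapping matches allowed, for the NF-kB consensus. A match was present in 14 of the 24 members (58.3%), and in 1506 of the 15281 matrix genes with an entry (9.86%). A match is a description of the letters and not a binding site shown in these cells. Of the 9 members that rose in cells with 3 or more UMIs, described next, 6 held a consensus match, as did 8 of the other 15 with an entry. The 6 windows follow, 5′ to 3′ on the gene's strand, with consensus matches of either strand in capitals.
Nfkbia (chr12:55492648-55492897, minus strand): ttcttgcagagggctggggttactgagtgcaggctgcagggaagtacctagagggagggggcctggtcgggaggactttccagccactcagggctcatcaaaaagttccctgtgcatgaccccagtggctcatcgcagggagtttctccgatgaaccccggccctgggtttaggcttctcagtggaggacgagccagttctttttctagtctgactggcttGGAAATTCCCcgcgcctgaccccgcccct
Nfkbid (chr7:30422156-30422405, plus strand): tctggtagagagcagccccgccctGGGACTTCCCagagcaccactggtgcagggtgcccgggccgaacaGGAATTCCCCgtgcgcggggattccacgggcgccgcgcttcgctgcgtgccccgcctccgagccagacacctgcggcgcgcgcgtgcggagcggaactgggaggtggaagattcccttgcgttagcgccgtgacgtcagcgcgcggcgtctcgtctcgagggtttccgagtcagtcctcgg
Nfkbie (chr17:45555450-45555699, plus strand): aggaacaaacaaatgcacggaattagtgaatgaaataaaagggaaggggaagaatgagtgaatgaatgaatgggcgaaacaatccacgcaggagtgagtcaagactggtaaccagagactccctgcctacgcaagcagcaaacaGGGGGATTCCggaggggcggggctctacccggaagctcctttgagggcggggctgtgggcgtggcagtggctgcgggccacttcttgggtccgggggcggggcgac
Tnfaip3 (chr10:19015411-19015660, minus strand): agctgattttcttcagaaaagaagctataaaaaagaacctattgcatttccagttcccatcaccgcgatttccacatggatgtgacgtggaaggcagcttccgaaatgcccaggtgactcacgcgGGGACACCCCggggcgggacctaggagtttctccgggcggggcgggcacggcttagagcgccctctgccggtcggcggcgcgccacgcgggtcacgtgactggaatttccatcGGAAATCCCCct
Sod2 (chr17:13007589-13007838, plus strand): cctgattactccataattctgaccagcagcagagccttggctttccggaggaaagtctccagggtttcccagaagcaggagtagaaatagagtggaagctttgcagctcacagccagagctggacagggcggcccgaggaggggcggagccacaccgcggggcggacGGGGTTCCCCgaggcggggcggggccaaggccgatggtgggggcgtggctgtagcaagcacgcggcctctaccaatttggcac
Ccrl2 (chr9:111057519-111057768, minus strand): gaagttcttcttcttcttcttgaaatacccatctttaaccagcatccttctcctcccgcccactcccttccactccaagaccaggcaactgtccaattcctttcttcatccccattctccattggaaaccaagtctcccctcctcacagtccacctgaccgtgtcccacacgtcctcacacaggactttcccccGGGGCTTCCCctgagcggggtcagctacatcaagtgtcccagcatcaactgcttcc
The match nearest to a start was that of Tnfaip3, whose last base lay 3 bases upstream, followed by that of Nfkbia at 20 bases. Nfkbid and Tnfaip3 each had matches at 2 places, and the other 4 genes at 1. The Nfkbid window belongs to listed start number 2 and lies inside the span of the gene (chromosome 7, 30421731 to 30428749). The window of its other listed start, numbered before it, had no match. The remaining members that rose, Zc3h12a (chromosome 4, 125118414 to 125127881), Gadd45b (chromosome 10, 80930091 to 80932204) and Icam1 (chromosome 9, 21015940 to 21028814, all protein-coding), had no match in their windows.

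Mature neutrophils with 3 or more UMIs of Il1a+Cxcl2 carried more RNA of 9 members than mature cells with none. Of the 32 members, 9 rose and 0 fell at an adjusted p under 0.05 in edgeR's quasi-likelihood test, with pool as a block and Benjamini-Hochberg adjustment over 10331 genes. Over all genes tested 0.697% rose and 0.00968% fell. Members and classes were chosen with earlier results of these data known, and Il1a and Cxcl2 are themselves known NF-kB targets. The member count beside these shares is a description and not a test of the list. The members that rose were Nfkbia, Nfkbid, Nfkbie, Tnfaip3, Zc3h12a, Gadd45b, Sod2, Icam1 and Ccrl2. They were 3 of the 6 IkB genes, 2 of the 5 other feedback inhibitors, 2 of the 5 survival and stress genes and 2 of the 9 surface and other targets, with none of the 4 subunits or the 3 signalling kinases and adaptors. The median log2 change of the members was 0.52 against -0.01 for all genes, and 30 of 32 lay above 0. At an unadjusted p under 0.05, 17 members were higher and 0 lower, and DESeq2 called 8 higher and 0 lower. No member's CPM was lower in both pools, 24 of the 31 with UMIs in every sum were higher in both, and 7 went opposite ways.

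**Figure D1:**
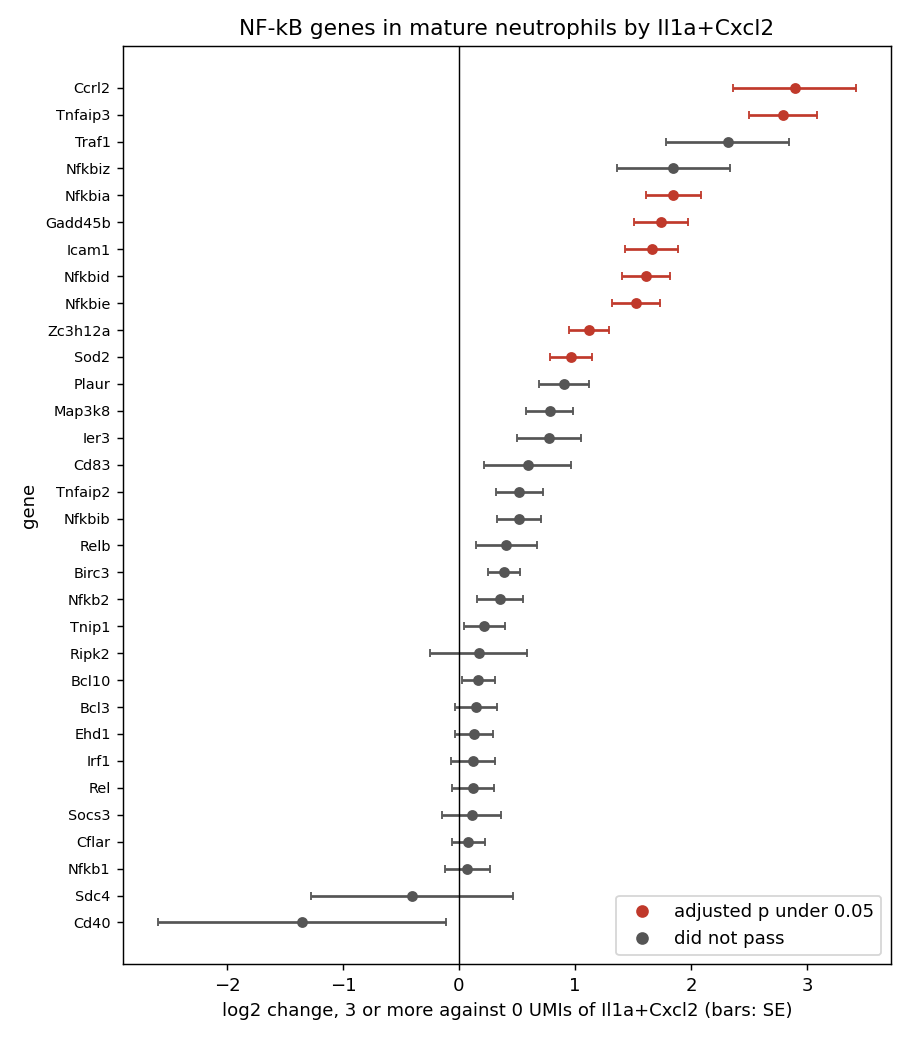
Log2 change of each of the 32 members between mature neutrophils with 3 or more and with 0 UMIs of Il1a+Cxcl2, from edgeR's fit over 8 classes and 2 pools; points are estimates, bars are standard errors and red marks an adjusted p under 0.05. The 9 red points lie between 0.97 (Sod2) and 2.89 (Ccrl2), and the subunit genes Rel and Nfkb1 lie near 0.

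The IkB genes encode the proteins that hold NF-kB in the cytoplasm or act on it in the nucleus. Nfkbia, which encodes IkB alpha, stood at 866 CPM in YO1 (95% interval 844 to 889) and 681 CPM in YO2 (664 to 699.6) in cells with none. It reached 2810.4 CPM in YO1 (95% interval 2745 to 2877) and 2397 CPM in YO2 (2348 to 2447) in cells with 3 or more. The log2 change was 1.85 ± 0.24 (SE, edgeR adjusted p = 0.00064), a 3.60-fold rise, and the pools of the 2 classes did not overlap. Each SE is the size of the log2 change divided by the square root of the test's F value. It rests on a spread shared by all classes of the fit and is not the scatter of the 2 pools. Nfkbid, a nuclear IkB protein, went from 187 CPM in YO1 and 188 CPM in YO2 to 524 CPM in YO1 and 551 CPM in YO2, a log2 change of 1.61 ± 0.21 (edgeR adjusted p = 0.00064). Its 2 pools lay close together in both classes. Nfkbie, encoding IkB epsilon, went from 17.4 CPM in YO1 and 17.9 CPM in YO2 to 33.6 CPM in YO1 and 61.5 CPM in YO2 (1.53 ± 0.21, edgeR adjusted p = 0.00068), with a steeper step in YO2.

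Nfkbiz encodes the nuclear IkB zeta, a co-activator of secondary NF-kB targets. It stood at 326 CPM in YO1 and 339 CPM in YO2 in cells with none and at 1111 CPM in YO1 and 1129 CPM in YO2 in cells with 3 or more. This is as large as the change of Nfkbia, with a log2 change of 1.85 ± 0.49, but it missed the threshold (edgeR adjusted p = 0.15). All 8 classes share 1 estimate of the spread, and Nfkbiz differed between pools in immature cells, with 53.6 CPM in YO1 and 202 CPM in YO2 in the Ltf-high class. In a fit of the 3 mature classes alone its log2 change was 1.85 ± 0.08, and it passed there. It passed in 6 of 19 alternatives, over which the adjusted p ran from 1.3e-23 to 1. Nfkbib, encoding IkB beta, was at 25.4 CPM in YO1 and 30.6 CPM in YO2 and 36.9 CPM in YO1 and 38.4 CPM in YO2 (log2 change 0.52 ± 0.19), and Bcl3, a nuclear IkB protein, was at 161 CPM in YO1 and 146 CPM in YO2 and 169 CPM in YO1 and 150.3 CPM in YO2 (0.15 ± 0.18). Neither passed.

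Among the other feedback inhibitors, Tnfaip3 and Zc3h12a rose. Tnfaip3 encodes A20, which removes and adds ubiquitin chains on signalling proteins. Its level was 64.3 CPM in YO1 (95% interval 58.3 to 70.8) and 58.5 CPM in YO2 (53.3 to 64.0) in cells with none and 354 CPM in YO1 (95% interval 331 to 378) and 449.7 CPM in YO2 (429 to 472) in cells with 3 or more. The log2 change of 2.79 ± 0.30 (6.93-fold, edgeR adjusted p = 0.00015) had the lowest adjusted p of any member, and both pools moved far beyond their difference from each other. Zc3h12a, which encodes Regnase-1, an RNase that degrades inflammatory mRNAs, went from 50.5 CPM in YO1 and 62.8 CPM in YO2 to 109 CPM in YO1 and 121 CPM in YO2 (1.12 ± 0.17, edgeR adjusted p = 0.0022). Traf1, a signalling adaptor, was low at 1.09 CPM in YO1 and 2.46 CPM in YO2 and 3.61 CPM in YO1 and 13.1 CPM in YO2 and did not pass (2.32 ± 0.53, edgeR adjusted p = 0.066). Socs3, an inhibitor of cytokine receptor signalling through STAT3, was level, at 453 CPM in YO1 and 288 CPM in YO2 and 449.8 CPM in YO1 and 299.7 CPM in YO2, as was Tnip1, an A20-binding protein, at 39.5 CPM in YO1 and 39.7 CPM in YO2 and 42.1 CPM in YO1 and 44.1 CPM in YO2. Socs3 differed more between the pools than between the classes.

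The survival and stress genes were mixed. Gadd45b, a stress sensor that restrains JNK signalling, went from 114 CPM in YO1 and 109 CPM in YO2 to 297 CPM in YO1 and 415 CPM in YO2 (1.74 ± 0.23, edgeR adjusted p = 0.00068). Sod2, the mitochondrial superoxide dismutase, went from 21.1 CPM in YO1 and 25.4 CPM in YO2 to 33.6 CPM in YO1 and 51.5 CPM in YO2 (0.97 ± 0.18, edgeR adjusted p = 0.014). The rise of Sod2 was the smallest of the 9 and was larger in YO2. Ier3, an early response gene, was at 465 CPM in YO1 and 215 CPM in YO2 and 659 CPM in YO1 and 412 CPM in YO2 (log2 change 0.78 ± 0.27) and did not pass. Birc3, which encodes the ubiquitin ligase cIAP2, was at 68.2 CPM in YO1 and 106 CPM in YO2 and 90.5 CPM in YO1 and 121 CPM in YO2 (0.39 ± 0.14), and Cflar, which encodes the caspase-8 inhibitor c-FLIP, at 90.2 CPM in YO1 and 83.9 CPM in YO2 and 84.9 CPM in YO1 and 88.0 CPM in YO2 (0.08 ± 0.14). Neither passed in this fit.

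Among surface molecules and other targets, Icam1 and Ccrl2 rose. Icam1 is the adhesion molecule that binds the beta-2 integrins. It stood at 13 CPM in YO1 (95% interval 10.4 to 16.1) and 15.8 CPM in YO2 (13.2 to 18.8) in cells with none and at 24.8 CPM in YO1 (95% interval 19.0 to 31.8) and 62.5 CPM in YO2 (54.8 to 71.0) in cells with 3 or more (1.66 ± 0.23, edgeR adjusted p = 0.00077). Ccrl2, an atypical receptor that binds chemerin, went from 105 CPM in YO1 (95% interval 97.5 to 113) and 138 CPM in YO2 (130.3 to 147) to 548 CPM in YO1 (95% interval 519 to 578) and 1384 CPM in YO2 (1347 to 1422) (2.89 ± 0.53, edgeR adjusted p = 0.011). The pools agreed in direction for both genes, with the larger step in YO2. Plaur, the urokinase receptor, was at 491 CPM in YO1 and 468 CPM in YO2 and 810.0 CPM in YO1 and 878 CPM in YO2 and missed the threshold (0.91 ± 0.21, edgeR adjusted p = 0.07). Tnfaip2, a TNF-induced gene, was at 1466 CPM in YO1 and 1709.9 CPM in YO2 and 2049.7 CPM in YO1 and 2192 CPM in YO2 (0.52 ± 0.20). The transcription factor Irf1 was level at 472 CPM in YO1 and 481 CPM in YO2 and 477 CPM in YO1 and 495 CPM in YO2, and the endocytosis gene Ehd1 at 184 CPM in YO1 and 121 CPM in YO2 and 169 CPM in YO1 and 139 CPM in YO2. Cd40, Cd83 and Sdc4 were near their detection limit in mature cells, below 5 CPM in every sum, and no change is given for them.

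The genes of the signal itself did not pass in this fit. The subunits Rel (0.12 ± 0.18 on the log2 scale), Nfkb1 (0.07 ± 0.20), Nfkb2 (0.35 ± 0.20) and Relb (0.41 ± 0.26) had 0 of 4 called. Rel was at 53.2 CPM in YO1 and 59.7 CPM in YO2 and at 53.7 CPM in YO1 and 61.2 CPM in YO2, a shift within the difference between pools. The kinase gene Map3k8, which encodes Tpl2, was at 31.6 CPM in YO1 and 30.6 CPM in YO2 and 60.5 CPM in YO1 and 41.5 CPM in YO2 (0.78 ± 0.20, edgeR adjusted p = 0.13). The adaptor Bcl10 was at 206 CPM in YO1 and 179 CPM in YO2 and 219.5 CPM in YO1 and 186 CPM in YO2, and the kinase gene Ripk2 was under 6 CPM throughout. With 2 pools a class, a miss does not show that these genes are equal.

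**Figure D2:**
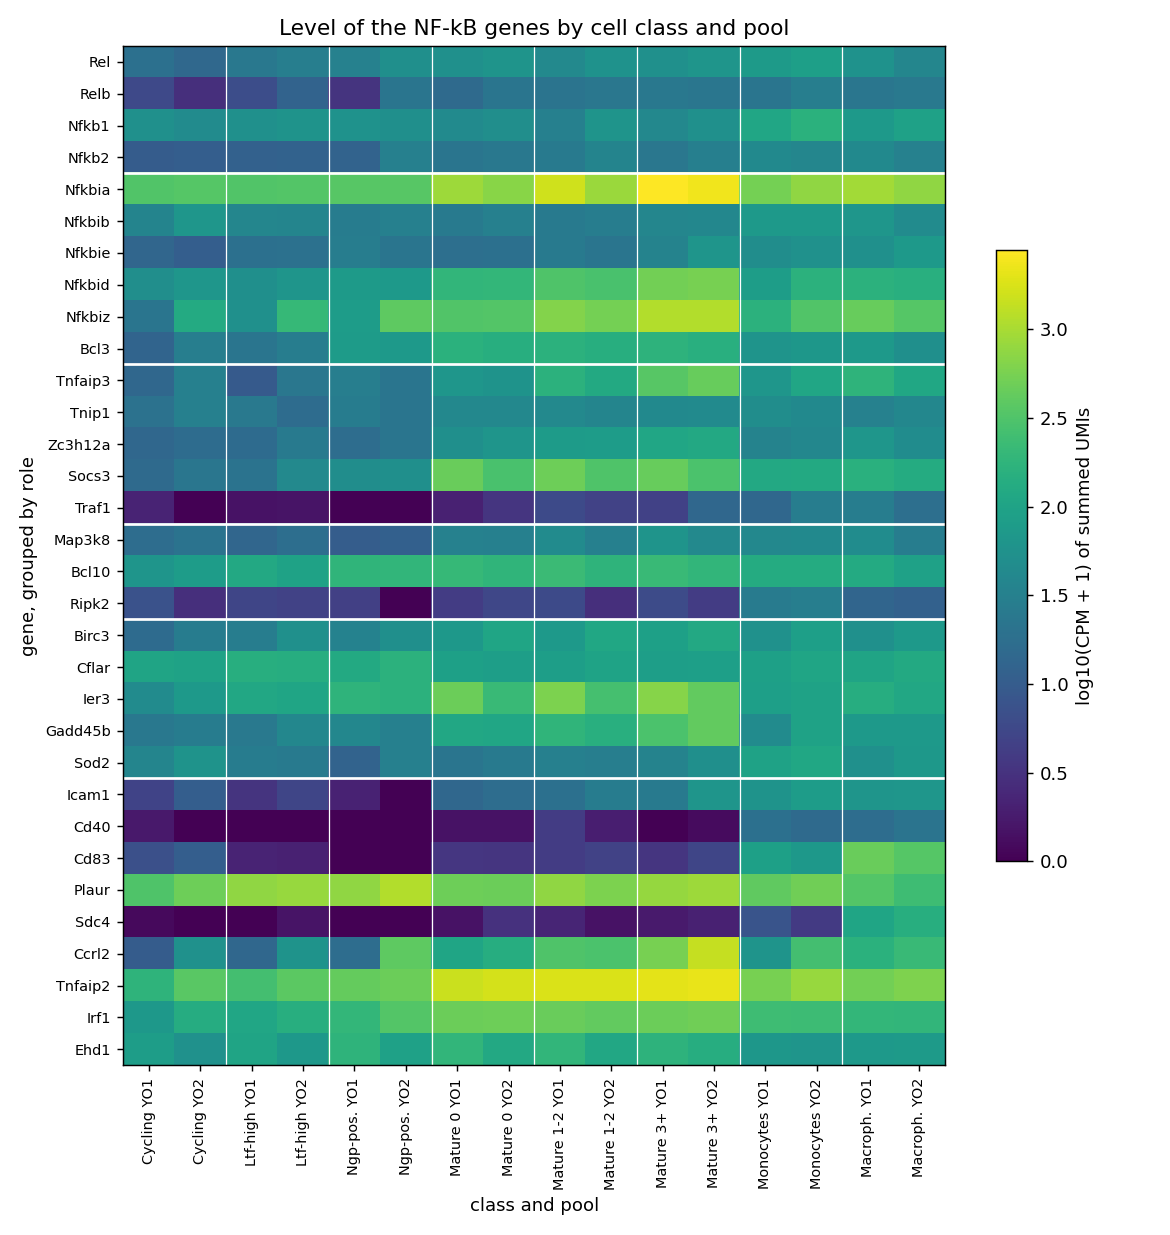
Levels of the 32 members by class and pool, as CPM of summed UMIs on a log colour scale shared by all genes. Genes are not scaled to their own maximum, so colours are compared along a row. Rows are grouped by role, and Nfkbia, Nfkbid, Tnfaip3 and Ccrl2 are highest in mature cells with 3 or more UMIs of Il1a+Cxcl2, whereas Cd83 and Sdc4 are highest in macrophages.

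Several of the 9 calls rested on a single sum. Without the YO2 cells with none, 3 members passed, and without the YO2 cells with 3 or more, 4 passed. Nfkbia, Nfkbid and Tnfaip3 passed in all 19 alternatives run, Gadd45b in 18, Nfkbie in 17, Zc3h12a in 15, Icam1 in 14, Ccrl2 in 13 and Sod2 in 12. Sod2 and Icam1 lost the call when mature cells needed 5% calprotectin. Without a pool block 5 members passed. With the 3 mature classes alone in the fit, 17 of the 30 members tested rose, where 3.71% of all genes did. With every cell thinned to 1000 UMIs before the thresholds, 15 of 32 rose, where 1.41% of all genes did. Both sets included all 9, and also Nfkbiz, Traf1, Map3k8, Birc3, Ier3 and Plaur, whose misses in the main fit thus depend on the setting. The summed monocyte markers were 317 and 292 CPM in YO1 and YO2 in cells with none and 293 and 256 CPM in cells with 3 or more, with no marker at 0. The summed macrophage markers were 14.7 and 20.9 against 20.0 and 38.6 CPM, far under the macrophages' own 8732 and 9229.7. With mature cells that held no UMI of either list, 8 members rose.

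No member passed in cells with 1-2 UMIs of Il1a+Cxcl2 against none. In CPM, 21 members were higher in both pools, 2 were lower in both and 9 went opposite ways. The edgeR test called 0 of 32 members higher and 0 lower, where 0% of all genes were called in either direction, and DESeq2 also called 0. At an unadjusted p under 0.05, 10 members were higher and 0 lower, of 321 genes in all. The median log2 change was 0.33 against -0.02 for all genes. Tnfaip3 stood at 163 CPM in YO1 and 125 CPM in YO2 (log2 change 1.25 ± 0.30), Ccrl2 at 314 CPM in YO1 and 298 CPM in YO2 (1.42 ± 0.52) and Nfkbia at 1604 CPM in YO1 and 847 CPM in YO2 (0.67 ± 0.23). The Nfkbia step was larger in YO1, where the level was 1.85 times that of cells with none, than in YO2, at 1.24 times. In the fit of the mature classes alone 9 members rose, where 1.30% of all genes did, and with thinned cells Tnfaip3 and Ccrl2 passed.

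Finer steps were read in mature cells thinned to 1000 UMIs each, so that every cell had the same depth. This kept 12909 cells of YO1 and 15468 of YO2 before the classes were formed, and left out 6596 and 1747 shallower ones. From 0 to 11 or more UMIs of Il1a+Cxcl2, Tnfaip3 went from 66.2 and 67.8 to 564 and 1002 CPM in YO1 and YO2, and Nfkbia from 801 and 692 to 3897 and 4589 CPM. Nfkbiz went from 318 and 350.0 to 1764 and 1956 CPM, Nfkbid from 174 and 200.5 to 745 and 912 CPM and Gadd45b from 93.8 and 115 to 582 and 977 CPM. Ccrl2 differed between the pools in the top step, at 867 and 3686 CPM, from 107 and 153 CPM at 0. Socs3 showed no such slope, with 366 and 292 CPM at 0 and 448 and 286 CPM at 11 or more. Irf1 stood at 413 and 481 and 509 and 606 CPM. The steps were chosen with these data in view and carry no test.

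**Figure D3:**
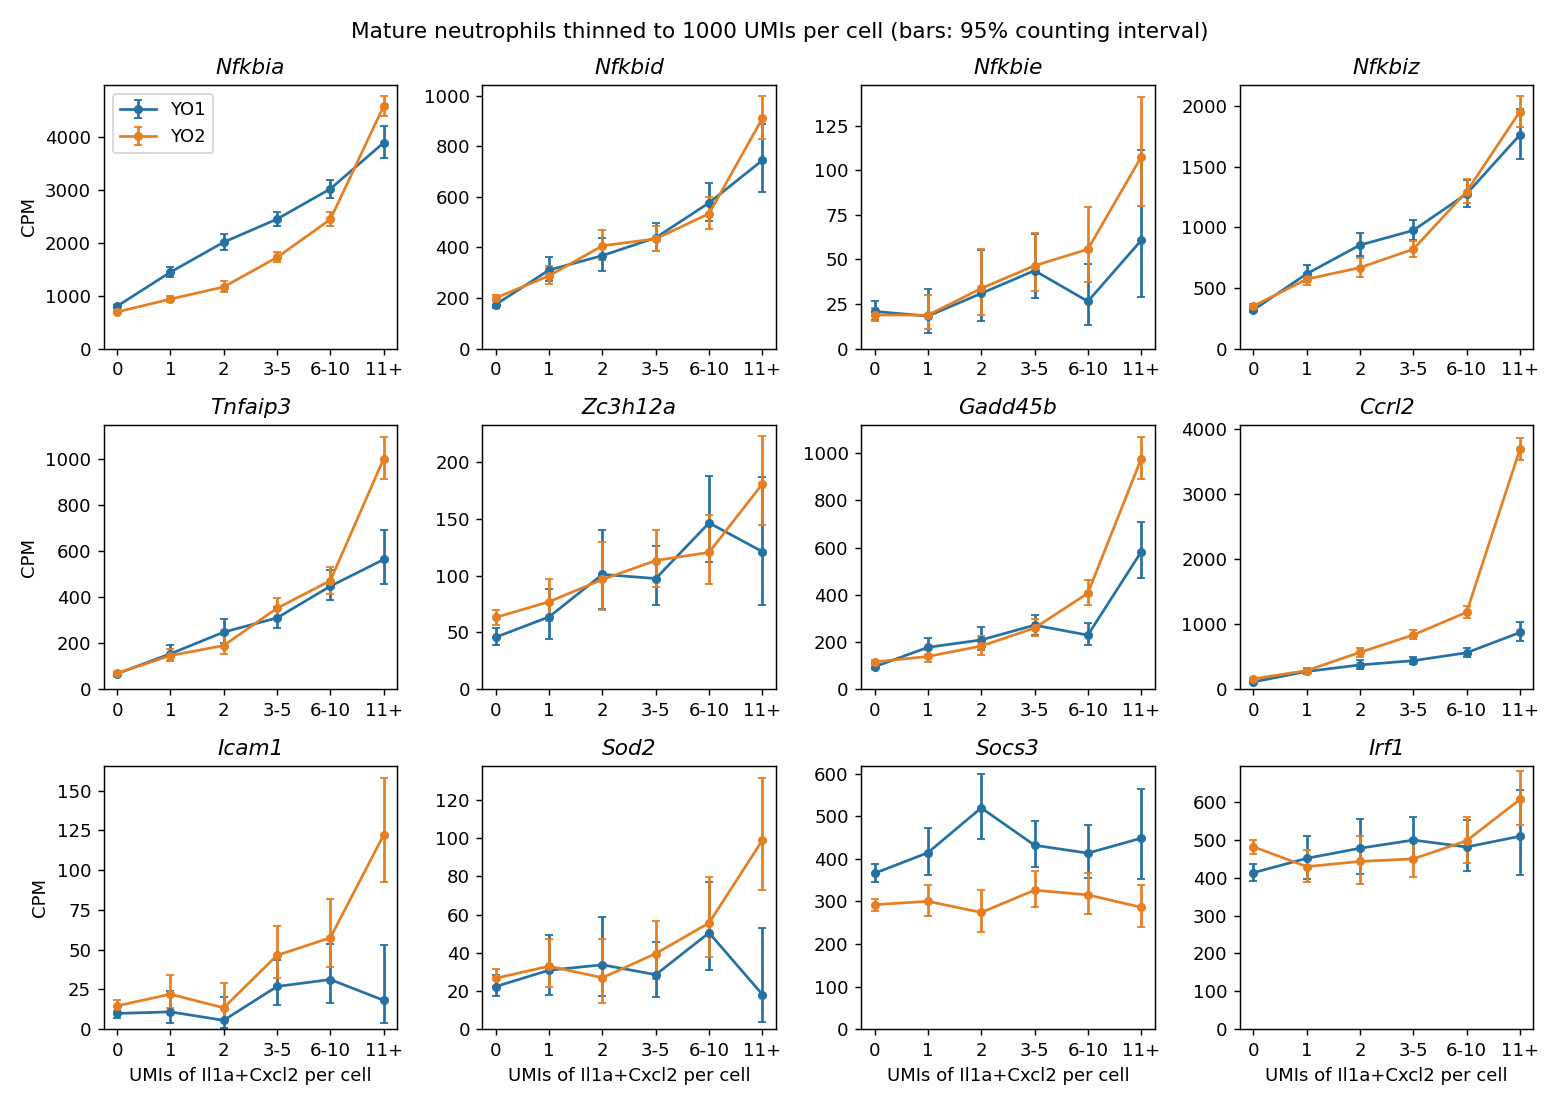
Levels (CPM) of the 9 members that rose, and of Nfkbiz, Socs3 and Irf1, in mature neutrophils thinned to 1000 UMIs per cell. They are shown by the number of Il1a+Cxcl2 UMIs for YO1 and YO2, and bars are 95% counting intervals. Tnfaip3, Nfkbia and Ccrl2 climb at each step to the top bin, and Socs3 stays near its level at 0.

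Other genes of the pathway were counted in 4 lists. Of the receptor and adaptor list, 0 of 26 tested genes passed in cells with 3 or more against none, and of the kinase, ubiquitin and subunit list 0 of 17. Of 13 tested genes of the other brakes list, Ppp1r15a rose (log2 change 1.57 ± 0.34, edgeR adjusted p = 0.043), a phosphatase subunit that restores translation after stress. Of 24 tested cytokine and other target genes, 8 rose and 0 fell. They included the chemokine genes Cxcl1 (6.60 ± 0.88, edgeR adjusted p = 0.00068) and Cxcl3 (4.23 ± 0.36, 4e-05), and Bcl2a1d, Bcl2a1a and Bcl2a1b (2.63 ± 0.34, 2.44 ± 0.44 and 2.20 ± 0.25). The last 3 are near-identical copies of the survival gene A1, between which reads can be split, so their separate values are uncertain.

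Some members stood higher still in cells outside the thresholds, mainly in YO2. Cells under 2% calprotectin fell out of the mature class. Those with at least 3 UMIs summed over the neutrophil genes Csf3r, Cxcr2, Retnlg, Mmp9, Il1r2 and Hdc were taken as low-calprotectin neutrophils. Among them, 244 in YO1 (1.25% of the pool) and 1297 in YO2 (7.53%) had 3 or more UMIs of Il1a+Cxcl2. Their median was 6 such UMIs in YO1 and 20 in YO2. They were defined after the data were seen and are described without a test across pools. They carried Csf3r, the G-CSF receptor gene, at 2091 CPM in YO1 and 1612 CPM in YO2, and Cxcr2 at 2342 CPM in YO1 and 1834 CPM in YO2. Both genes helped to select these cells, so their levels do not test what the cells are. Ly6g, which was not used to select them, stood at only 13 CPM in YO1 and 7.14 CPM in YO2, where mature cells with 3 or more had 77.3 and 96.4 CPM. Their summed monocyte markers were 345 and 283 CPM, close to mature cells, and their eosinophil markers 120.5 and 203 CPM against 42.1 and 56.0 CPM. The class rules limit both sums, since cells with 3 or more UMIs of either list had already been taken out. The part of these in the values below was not tested.

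In YO2 the low-calprotectin cells with 3 or more exceeded mature cells with 3 or more in 25 of 32 members, by intervals that did not overlap. Over the 10331 genes 26.7% were higher and 8.97% lower by the same rule, which finds more genes in deeper sums. Of the members, Bcl3 and Bcl10 were lower and 5 overlapped. Nfkbia stood at 5899 CPM (5795 to 6004) against 2397 CPM (2348 to 2447), 2.46 times as high. Tnfaip3 stood at 1377 CPM (1327 to 1428) against 449.7 CPM (429 to 472), 3.06 times as high, and Gadd45b at 1602 CPM (1548 to 1657) against 415 CPM (395 to 436), 3.86 times. Ccrl2 stood at 6885 CPM (6773 to 6998) against 1384 CPM (1347 to 1422) and Icam1 at 562 CPM (531 to 595) against 62.5 CPM (54.8 to 71.0), which is 9.0 times as high. Traf1 stood at 77.6 CPM (66.2 to 90.5) against 13.1 CPM (9.75 to 17.3) and Nfkbie at 230.0 CPM (210.0 to 251) against 61.5 CPM (53.8 to 69.9). Socs3 overlapped, at 283 CPM (261 to 307) against 299.7 CPM (283 to 318). Plaur stood at 1185 CPM (1139 to 1233) against 878 CPM (848 to 908), 1.35 times as high. In YO1, 8 members were higher and 24 overlapped, where 10.6% of all genes were higher and 2.40% lower. The 8 were also among the 25 of YO2. There Nfkbia stood at 3009 CPM (2818 to 3209.7) against 2810.4 CPM (2745 to 2877) and Tnfaip3 at 427 CPM (357 to 506) against 354 CPM (331 to 378), which overlapped, and Icam1 at 78.2 CPM (50.1 to 116) against 24.8 CPM (19.0 to 31.8) and Ccrl2 at 817 CPM (719 to 925) against 548 CPM (519 to 578), which did not. When the mature class was redefined without a calprotectin minimum, 13 members rose in cells with 3 or more against none, where 1.20% of all genes did.

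**Figure D4:**
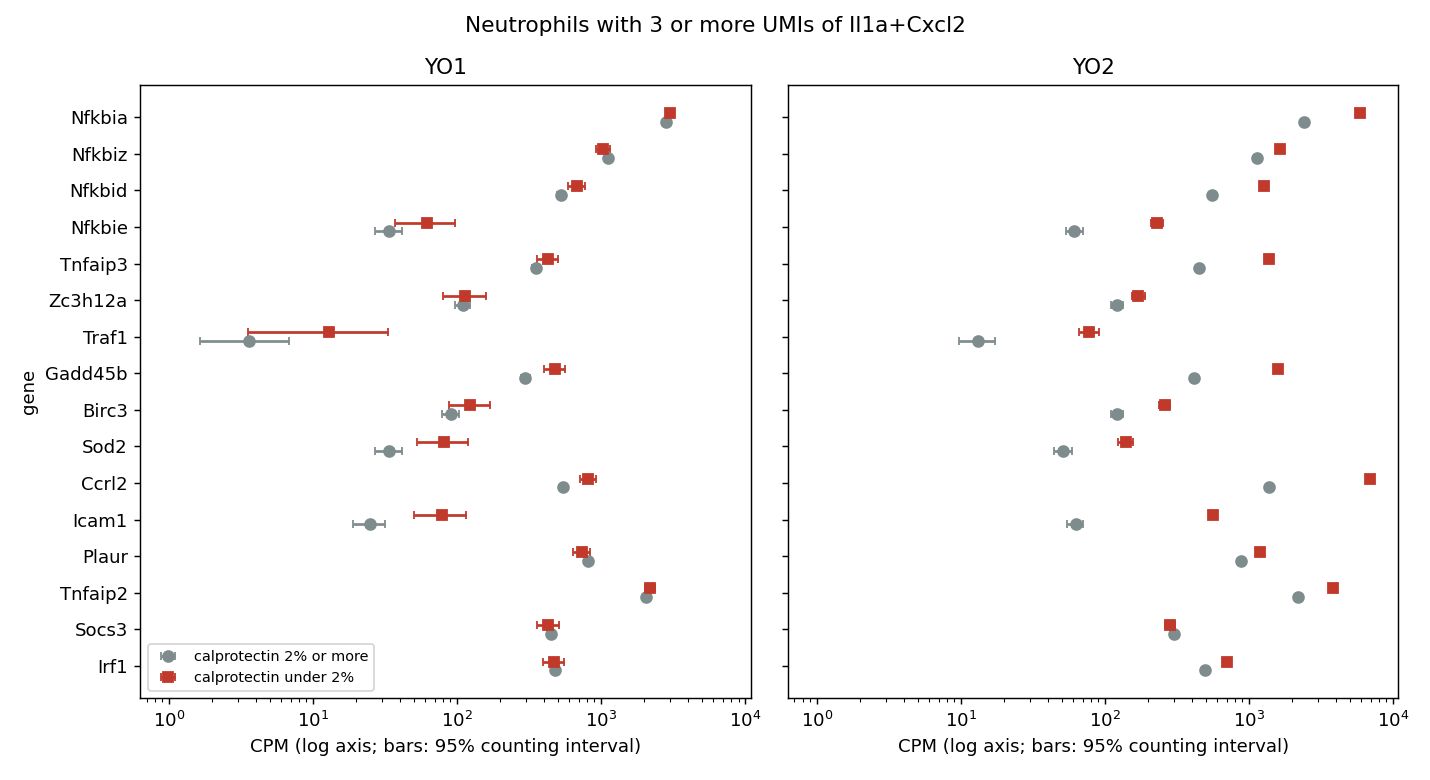
Levels of 16 members (CPM, log axis) in neutrophils with 3 or more UMIs of Il1a+Cxcl2, for cells with calprotectin of 2% or more (mature class, grey circles) and under 2% (red squares), in YO1 (left) and YO2 (right); bars are 95% counting intervals. In YO2 the red squares lie to the right for most genes, including Icam1 and Ccrl2, and in YO1 most overlap.

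Before maturity most members were low. Against all mature cells, edgeR called 0 of 32 members higher and 26 lower in cycling cells, 1 higher and 26 lower in Ltf-high immature cells, and 0 higher and 18 lower in Ngp-positive immature cells. Large parts of the transcriptome also moved: 33.1% of 10764 genes were higher and 34.3% lower in cycling cells, 17.0% and 30% in Ltf-high cells, and 3.82% and 15.9% in Ngp-positive cells. At an unadjusted p under 0.05, 0 members were higher in cycling and Ngp-positive cells, and DESeq2 called 0 and 1 higher. DESeq2 called 23 members lower in cycling, 22 in Ltf-high and 12 in Ngp-positive cells. Of the 10764 genes it called 2173, 1939 and 590 lower in the same order. The median log2 change of members was -2.56 in cycling cells, where that of all genes was -0.0035, and -1.90 in Ltf-high cells against -0.29 (-1.64 with Cd40, at 0 UMIs in that class, set at its bound). In Ngp-positive cells it was -1.90 against -0.59, and -1.29 with the 4 members at 0 UMIs (Cd40, Cd83, Sdc4, Traf1) at their bound. The contrasts share the mature cells and are not independent of each other.

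These counts depend on the scaling more than those within mature cells. The log2 changes are after TMM scaling. With total UMIs in place of TMM the median of all genes moved to 0.74 in cycling, -0.02 in Ltf-high and -0.30 in Ngp-positive cells. Genes called higher and lower over the whole transcriptome went from 3560 and 3696 to 5309 and 2206 in cycling cells, from 1827 and 3227 to 2587 and 2525 in Ltf-high cells, and from 411 and 1707 to 601 and 869 in Ngp-positive cells. Of the members, 23, 25 and 15 were lower by that scaling.

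All 5 other feedback inhibitors and 5 of the 6 IkB genes were lower in both cycling and Ltf-high cells. Socs3 stood at 14.6 CPM in YO1 and 21.4 CPM in YO2 in cycling cells, 19.8 CPM in YO1 and 41.5 CPM in YO2 in Ltf-high cells and 457 CPM in YO1 and 296 CPM in YO2 in all mature cells. Its log2 change was -5.31 ± 0.36 in cycling and -4.0 ± 0.31 in Ltf-high cells (edgeR adjusted p = 4.2e-09 and 4.2e-08). Tnfaip3 stood at 13.2 CPM in YO1 and 31.1 CPM in YO2, 8.61 CPM in YO1 and 22.3 CPM in YO2 and 148 CPM in YO1 and 174 CPM in YO2 in the same order, with log2 changes of -3.93 ± 0.39 and -3.85 ± 0.36. Every immature sum of these 2 genes lay far under both mature sums. Bcl3 stood at 11.8 CPM in YO1 and 29.1 CPM in YO2, 21.1 CPM in YO1 and 28.2 CPM in YO2 and 163 CPM in YO1 and 147 CPM in YO2 (-4.12 ± 0.31 and -2.98 ± 0.26). It was intermediate in Ngp-positive cells, at 76.6 CPM in YO1 and 72.5 CPM in YO2 (-1.33 ± 0.30, edgeR adjusted p = 0.0053). Nfkbia was flat over the immature classes, at 328 CPM in YO1 and 346 CPM in YO2 in cycling, 321 CPM in YO1 and 332 CPM in YO2 in Ltf-high and 361 CPM in YO1 and 352 CPM in YO2 in Ngp-positive cells, against 1438 CPM in YO1 and 1171 CPM in YO2 in mature cells (-2.27 ± 0.25 in Ltf-high cells, edgeR adjusted p = 1.4e-06).

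**Figure D5:**
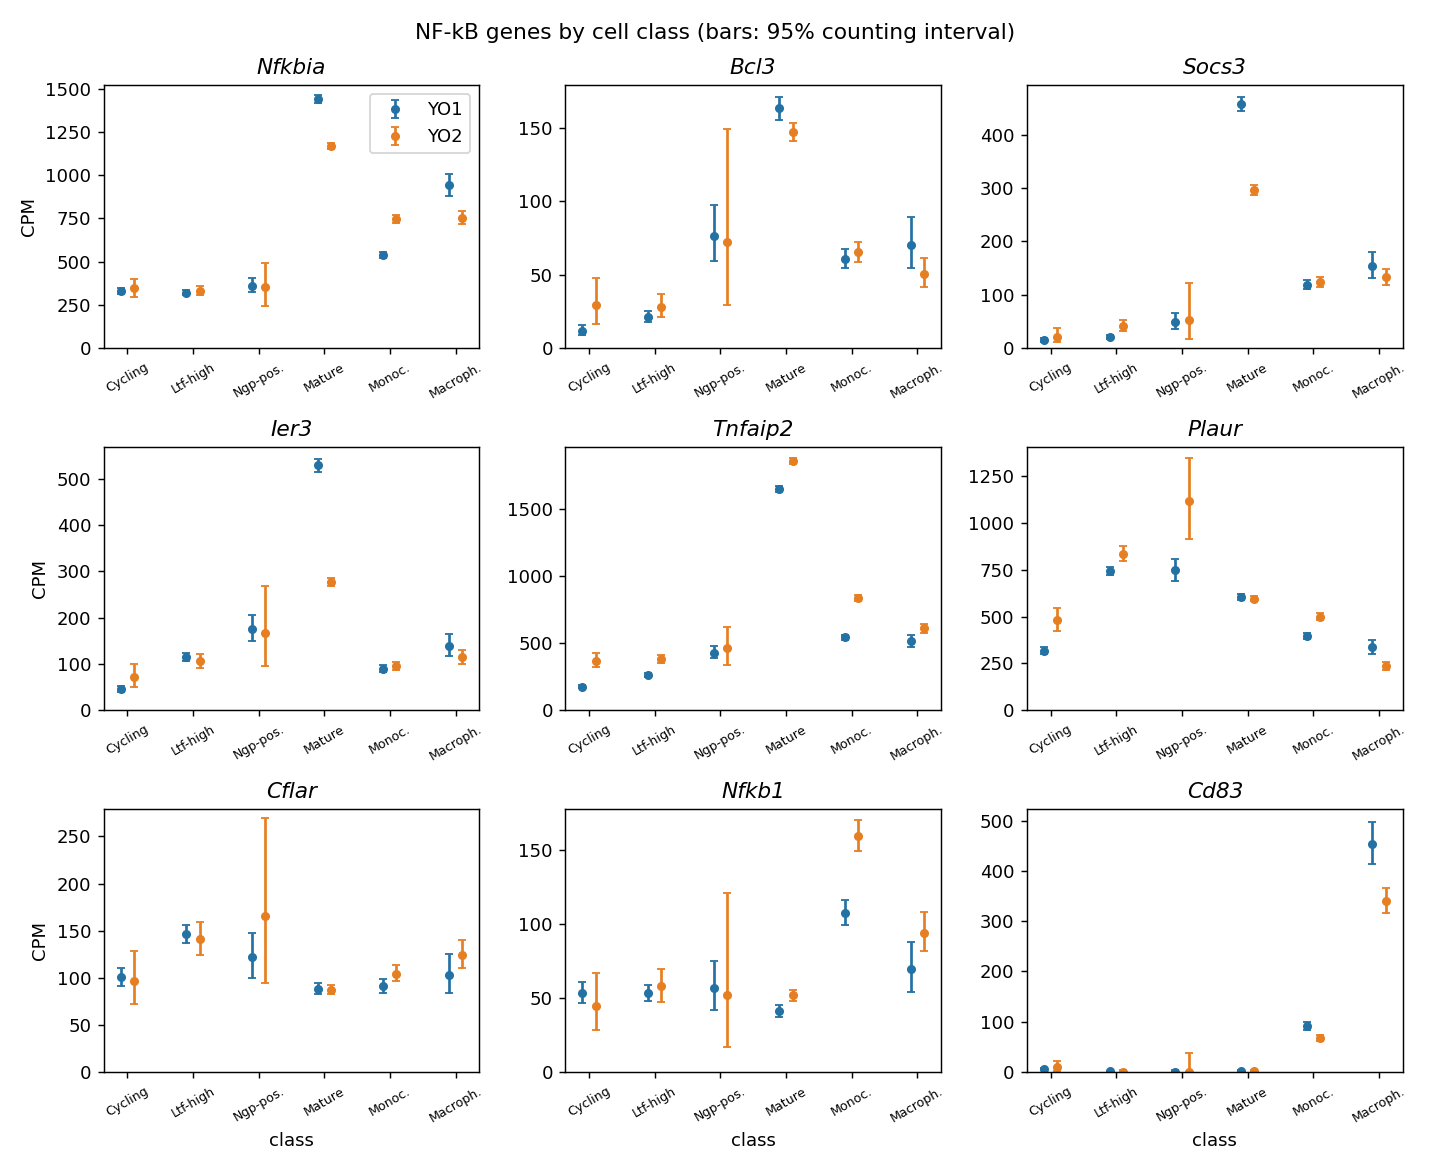
Levels of 9 members (CPM) in cycling, Ltf-high immature, Ngp-positive immature and all mature neutrophils, monocytes and macrophages, for YO1 and YO2; bars are 95% counting intervals, wide for the 32 Ngp-positive cells of YO2. Nfkbia, Bcl3, Socs3, Ier3 and Tnfaip2 are highest in mature cells, Cflar in YO1 is highest in Ltf-high cells, and Cd83 is highest in macrophages.

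Of the 5 survival and stress genes, 3 were lower and 1 higher in Ltf-high cells, and of the 9 surface and other targets 8 were lower. Gadd45b stood at 23.5 CPM in YO1 and 38.3 CPM in YO2 in Ltf-high cells and 167 CPM in YO1 and 198 CPM in YO2 in mature cells (-2.89 ± 0.25), Ier3 at 115 CPM in YO1 and 106 CPM in YO2 and 529.9 CPM in YO1 and 276 CPM in YO2 (-2.11 ± 0.27), and Tnfaip2 at 261 CPM in YO1 and 379.7 CPM in YO2 and 1650.1 CPM in YO1 and 1856 CPM in YO2 (-2.76 ± 0.28), each passing as lower. Cflar was the exception that rose, at 146 CPM in YO1 and 141 CPM in YO2 against 88.2 CPM in YO1 and 87.3 CPM in YO2 (0.44 ± 0.17, edgeR adjusted p = 0.04). Its call was lost in each fit that left out 1 of the 4 sums compared and in 4 other settings. Plaur did not pass, at 745 CPM in YO1 and 837 CPM in YO2 in Ltf-high and 606 CPM in YO1 and 597 CPM in YO2 in mature cells (0.12 ± 0.24), and was lower in cycling cells at 319 CPM in YO1 and 483 CPM in YO2 (-1.35 ± 0.25, edgeR adjusted p = 0.00015). The subunit gene Nfkb1 stood at 53.2 CPM in YO1 and 58.0 CPM in YO2 and 41.0 CPM in YO1 and 51.8 CPM in YO2 (0.01 ± 0.20) and did not pass, whereas Rel was lower, at 22.7 CPM in YO1 and 29.3 CPM in YO2 and 51.5 CPM in YO1 and 59.5 CPM in YO2 (-1.40 ± 0.21, edgeR adjusted p = 3.2e-05). In cycling cells Nfkb1 passed as lower (-0.54 ± 0.22) but its sign turned with total UMIs (0.22) and DESeq2 (0.10), as did that of Cflar.

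Some members also stood higher in immature cells with Cxcl2 RNA. Ltf-high cells were split by Il1a+Cxcl2 into 0 and 1 or more UMIs, a split made after the data were seen, with counting intervals and no test. In both pools, 7 of 32 members were higher in cells with 1 or more by intervals that did not overlap, where 2.12% of all genes were. The 7 were Nfkbia, Nfkbiz, Bcl3, Socs3, Ier3, Tnfaip2 and Ccrl2, and 0 members were lower, where 0.339% of all genes were. Nfkbia stood at 294 CPM in YO1 (95% interval 280.4 to 308) and 249 CPM in YO2 (223 to 276) in cells with none and at 636 CPM in YO1 (95% interval 569 to 708) and 558 CPM in YO2 (495 to 627) in cells with 1 or more. Ccrl2 stood at 5.18 CPM in YO1 and 10.9 CPM in YO2 and at 108 CPM in YO1 and 183 CPM in YO2. Nfkbiz stood at 40.9 CPM in YO1 and 176 CPM in YO2 and at 200.3 CPM in YO1 and 271 CPM in YO2, so that in cells with none the pools differed widely. Cells with 1 or more were deeper, with medians of 3543 UMIs in YO1 and 4856 in YO2 against 2906 and 4048.5. They also carried more Csf3r, a gene of later stages, at 545 CPM in YO1 and 712 CPM in YO2 against 252 and 379 CPM. All 7 members were also called lower in Ltf-high than in mature cells. No doublet caller was run, and the part of depth, maturation and doublets (barcodes holding more than 1 cell) in these values was not tested.

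Of the other pathway lists, most tested genes were also lower in cycling cells: 20 of 26 receptor and adaptor genes, 9 of 17 kinase, ubiquitin and subunit genes, 10 of 13 other brakes and 22 of 24 cytokine and target genes, where 34.3% of all genes were. In Ltf-high cells 18, 7, 8 and 20 were lower and 2, 2, 2 and 1 higher, where 30% of all genes were lower and 17.0% higher. Among these lists the share of lower genes in the kinase list, 7 of 17, came closest to that of all genes. The TNF receptor gene Tnfrsf1b (-3.33 ± 0.23) and Cd14 (-3.57 ± 0.54), the co-receptor for lipopolysaccharide, were lower in Ltf-high cells, and the kinase genes Ikbke (1.91 ± 0.47) and Map3k7 (0.65 ± 0.20), the latter encoding TAK1, were higher. In Ngp-positive cells 9, 4, 6 and 13 were lower and 0, 0, 0 and 1 higher, where 15.9% of all genes were lower and 3.82% higher. The target higher in all 3 immature classes was Lcn2, a secondary granule gene (3.34 ± 0.46 in Ltf-high cells).

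Monocytes and macrophages had more RNA of some members and less of others. Against all mature neutrophils, 8 members were higher and 20 lower in monocytes, and 5 higher and 21 lower in macrophages, in edgeR. Over all genes 36.8% were higher and 36.0% lower in monocytes, and 35.8% and 34.4% in macrophages. The median log2 changes of members were -1.08 and -1.13, against 0.04 and 0.05 for all genes. With total UMIs the medians of all genes moved to 0.99 and 0.92. All calls went from 3966 higher and 3872 lower to 6473 and 1668 in monocytes, and from 3855 and 3700 to 5898 and 1823 in macrophages. The member counts became 12 higher and 15 lower in monocytes, and 12 higher and 13 lower in macrophages. CPM below use total UMIs, so they can differ in sign from the TMM log2 changes, also for called genes such as Tnfaip3 in macrophages of YO1. In CPM, 15 members were higher and 16 lower than mature cells in both pools in monocytes, and 1 went opposite ways. In macrophages 13 were higher and 16 lower in both pools, and 3 went opposite ways.

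Of the 9 surface and other targets, 4 were higher and 5 lower in each class. Cd83, a co-stimulatory surface protein, stood at 454 CPM in YO1 (95% interval 413 to 498) and 340.3 CPM in YO2 (316 to 366) in macrophages and 91.6 CPM in YO1 and 67.7 CPM in YO2 in monocytes, against 2.56 CPM in YO1 and 3.13 CPM in YO2 in mature cells. Its log2 change was 6.19 ± 0.24 in macrophages and 3.80 ± 0.23 in monocytes (edgeR adjusted p = 7.2e-11 and 4.1e-09). Sdc4, the heparan sulfate proteoglycan syndecan-4, stood at 105 CPM in YO1 and 144 CPM in YO2 in macrophages, 6.82 CPM in YO1 and 2.91 CPM in YO2 in monocytes and 0.664 CPM in YO1 and 1.56 CPM in YO2 in mature cells (5.86 ± 0.40 in macrophages, edgeR adjusted p = 1e-08). Macrophages were far above both other classes for these 2 genes in each pool. Cd40, a receptor of the TNF receptor family, stood at 16.3 CPM in YO1 and 20.3 CPM in YO2 in macrophages and 17.5 CPM in YO1 and 14.5 CPM in YO2 in monocytes, against 0.759 and 0.498 CPM in mature cells (4.02 ± 0.44 and 3.70 ± 0.40, both passing). Icam1 was higher in both, at 58.3 CPM in YO1 and 78.7 CPM in YO2 in monocytes and 61.2 CPM in YO1 and 63.2 CPM in YO2 in macrophages against 16.5 CPM in YO1 and 30.2 CPM in YO2 in all mature cells (0.62 ± 0.19 and 0.54 ± 0.22). Its direction turned, to -0.37 and -0.49, when the mature class had no calprotectin minimum.

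Traf1 was higher in both classes, at 13 CPM in YO1 and 28.0 CPM in YO2 in monocytes and 27.5 CPM in YO1 and 17.1 CPM in YO2 in macrophages against 2.28 CPM in YO1 and 5.55 CPM in YO2 (1.41 ± 0.37 and 1.58 ± 0.44, edgeR adjusted p = 0.0032 and 0.0044). Monocytes also had more Ripk2, at 26.5 CPM in YO1 and 28.6 CPM in YO2 against 3.89 and 3.70 CPM (1.90 ± 0.27), the kinase below the NOD receptors. They had more Sod2, at 95.8 CPM in YO1 and 111 CPM in YO2 against 25.5 and 33.0 CPM (0.87 ± 0.17), and more Nfkb1, at 107 CPM in YO1 and 159.5 CPM in YO2 against 41.0 and 51.8 CPM (0.56 ± 0.19, edgeR adjusted p = 0.014). Of the 6 IkB genes 4 were lower in each class, with Nfkbib and Nfkbie not called, and of the 5 other feedback inhibitors 4 were lower and Traf1 higher. Nfkbia stood at 538 CPM in YO1 and 748 CPM in YO2 in monocytes and 942 CPM in YO1 and 754 CPM in YO2 in macrophages, below all mature cells in each pool (-1.97 ± 0.24 and -1.5 ± 0.24, edgeR adjusted p = 2.5e-06 and 3.9e-05). Tnfaip3 stood at 64.3 CPM in YO1 and 108 CPM in YO2 and 174 CPM in YO1 and 111 CPM in YO2 (-1.89 ± 0.29 and -1.06 ± 0.30). Against mature cells with Il1a+Cxcl2 of 0 in place of all mature cells, the Tnfaip3 difference in macrophages turned to 0.36. Socs3 stood at 118 CPM in YO1 and 124 CPM in YO2 and 154 CPM in YO1 and 132 CPM in YO2 (-2.60 ± 0.27 and -2.28 ± 0.28), and Ier3 at 88.8 CPM in YO1 and 95.4 CPM in YO2 and 139 CPM in YO1 and 114 CPM in YO2 (-3.05 ± 0.27 and -2.53 ± 0.28).

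In the other lists, 17 of 26 tested receptor and adaptor genes were lower in monocytes and 3 higher, and 18 lower and 4 higher in macrophages. Over all genes 36.0% were lower and 36.8% higher in monocytes, and 34.4% and 35.8% in macrophages. The list counts are after TMM scaling and were not repeated with total UMIs, which gave fewer lower calls over all genes. Ticam2 (3.76 ± 0.32 in monocytes, 3.29 ± 0.37 in macrophages), the adaptor TRAM, and Tlr1 (1.36 ± 0.33 and 3.15 ± 0.35) were among those higher, and Il1rap, the accessory chain of the interleukin-1 receptor, was lower (-2.74 ± 0.18 and -2.41 ± 0.20). Of the 17 kinase, ubiquitin and subunit genes, 9 were lower and 3 higher in monocytes, and 8 and 1 in macrophages. Among the 13 other brakes 8 were lower in each, and Tnip3 alone was higher in each (3.47 ± 0.68 and 5.0 ± 0.69). Of 24 cytokine and target genes, 19 were lower and 2 higher in monocytes, and 16 and 3 in macrophages.

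The pools differed in the same classes. With 1 library a pool, and ages and tissues mixed in unknown shares, these ratios carry counting intervals and no test. Members and other genes were compared where both pools had at least 5 UMIs, by intervals that left out 1. In mature cells with none, 5 of 30 members were higher in YO2 and 7 in YO1, where 17.8% and 14.2% of all genes were. In mature cells with 1-2 UMIs, 2 of 29 were higher in YO2 and 10 in YO1, against 8.45% and 8.71%. In mature cells with 3 or more, 11 of 30 were higher in YO2 and 6 in YO1, against 10.4% and 10.1%. In monocytes 16 of 32 were higher in YO2 and 2 in YO1, against 16.3% and 20.4%. In macrophages 5 of 32 were higher in YO2 and 10 in YO1, against 10.1% and 9.05%. In Ltf-high cells 11 of 28 were higher in YO2 and 3 in YO1, against 11.6% and 15.0%, and in cycling cells 10 of 27 and 1, against 15.0% and 11.8%. In Ngp-positive cells 4 of 16 were higher in YO2 and 0 in YO1, against 11.3% and 4.96%. Ccrl2 was higher in YO2 in mature cells with 3 or more, 2.53 times (95% interval 2.38 to 2.68), in monocytes, 4.33 times (95% interval 3.86 to 4.86), in Ltf-high cells, 4.30 times (95% interval 3.21 to 5.76), and in cycling cells, 6.08 times (95% interval 3.59 to 10.2). Nfkbiz was higher in YO2 in Ltf-high cells, 3.76 times (95% interval 3.24 to 4.36), and in cycling cells, 6.02 times (95% interval 4.31 to 8.39), and stood at 1111 CPM in YO1 and 1129 CPM in YO2 in mature cells with 3 or more. Ier3 went the other way, higher in YO1 in mature cells with none, 2.16 times (95% interval 2.04 to 2.29), and with 3 or more, 1.60 times (95% interval 1.49 to 1.72). Socs3 was likewise higher in YO1, 1.57 times (95% interval 1.49 to 1.66) in cells with none and 1.5 times (95% interval 1.38 to 1.63) in cells with 3 or more.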

How the data were processed

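The authors deposited 1 matrix that holds, for each gene in each barcode, the UMI count as a whole number, and these deposited counts were used unscaled. The submitters' processing notes name the mm10 build. No aligner, annotation or cell-calling step is named (not given in the sources used here). Libraries of sample tags and of antibody oligos were not used here. Cells with at least 200 UMIs, 100 genes and under 20% mitochondrial UMIs were kept, with no doublet caller, and the 5% of cells with the most UMIs were left out in 1 alternative. UMIs were summed per class and pool (at least 30 cells): 16 sums of 8 classes for the contrasts within mature cells, and 12 sums of 6 classes, mature cells pooled, for the others. The main test was edgeR 4.0.16's two-sided quasi-likelihood test in R 4.3.3 with TMM scaling, the filterByExpr filter, pool as a block and Benjamini-Hochberg adjustment at 0.05, leaving genes that define classes untested. DESeq2 1.42.0 was an alternative. The pool is a shared cartridge: over 5073 genes and 28 pairs of classes, the correlation of pool differences ran from 0.0995 to 0.628 (median 0.315), and 27 were over 0.1. Cells are not replicates, so n is 2 pools, and nothing in the labels ties a cell to an animal. On simulated data for cells with 3 or more against none (9424 genes), edgeR recovered 177 of 200 genes changed by log2 1 and called 6 of 9224 others. For cycling against mature cells (9911 genes) it recovered 151 of 200 and called 5 of 9711. Both simulations gave all classes 1 shared profile apart from the 200 genes, no pool effect and 1 spread for all genes. The real classes and pools differ far more widely, so these counts do not give the rate of false calls in the real contrasts. All 32 members could be named; of other lists, up to 5 genes a direction with the largest change among those passing in the first contrast and up to 3 in the others. Members, classes and lists were chosen with earlier results of these data known. The settings without a calprotectin minimum and without progenitor cells were added after seeing the data. Markers were fixed for 12 cell types, and the other-lineage filter used the lists other than neutrophil, progenitor, monocyte and macrophage. Further marker sums follow for mature cells with 3 or more of YO1 and YO2. T and NK markers summed to 12.8 and 9.46 CPM, B and plasma cell markers to 17.6 and 78.3 and eosinophil markers to 42.1 and 56.0. Endothelial markers summed to 50.5 and 0.525 CPM, dendritic cell to 3.20 and 3.41 and erythroid to 0 and 0.525. Basophil and mast cell markers summed to 2.80 and 0.263 CPM and epithelial and stromal to 2.80 and 6.57. Progenitor markers summed to 18.4 and 4.20 CPM and neutrophil markers to 82867 and 73262 CPM. Python 3.11.15 with pandas 2.3.3, scipy 1.17.1 and matplotlib 3.10.9 was used.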

Additional observations from a re-analysis of the deposited data

How the results depend on the processing

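Over the 3890 refits of single members under other settings, 3391 kept direction and side of the threshold, 224 lost the call, 90 gained one, 25 turned sign with a call in one of them, and 160 differed in sign with a call in neither. The number of members higher in mature cells with 3 or more against none, 9, became 14 without the low-count filter, 5 with no replicate block, 15 with cells thinned to 1000 UMIs, 14 with cells of 1000 to 3000 UMIs and 17 with only mature classes in the fit, and 3 to 9 with 1 sum left out. For 1-2 against none, 0 became 3 without the filter, 2 thinned and 9 with only mature classes. In cycling cells the count of 0 higher became 2 with total UMIs, and 1 each with thinned cells, calprotectin of at least 5% and without progenitor cells. Total UMIs turned Nfkb1 (0.22), Cflar (0.20) and Sod2 (0.57), and DESeq2 turned Nfkb1 (0.10) and Cflar (0.10). In Ltf-high cells the 1 higher member became 0 without the filter, with no replicate block, with other-lineage cells kept, with calprotectin of at least 5% and with any 1 sum left out (0 to 0). In Ngp-positive cells 0 higher became 1 with total UMIs and with DESeq2, and the 18 lower became 9 to 18 with 1 sum left out. In monocytes 8 higher became 5 with no replicate block, 5 with other-lineage cells kept and 4 to 7 with 1 sum left out. Total UMIs turned Rel (0.56), Relb (0.34), Nfkb2 (0.71), Tnip1 (0.17), Map3k8 (0.15) and Cflar (0.15), DESeq2 turned Relb (0.013), cells of 1000 to 3000 UMIs turned Tnip1 (0.018), and no calprotectin minimum turned Icam1 (-0.37). In macrophages 5 higher became 12 with total UMIs, 10 with DESeq2, 3 with cells of 1000 to 3000 UMIs, 3 without a calprotectin minimum and 3 to 5 with 1 sum left out, and 21 lower became 13 with total UMIs and 12 with DESeq2. Total UMIs turned Relb (0.21), Nfkb1 (0.83), Nfkb2 (0.57), Nfkbib (0.80) and Cflar (0.38), DESeq2 turned Relb (0.058), Nfkb1 (0.66), Nfkbib (0.67) and Cflar (0.23), the reference of cells with none turned Tnfaip3 (0.36), and no calprotectin minimum turned Icam1 (-0.49). The cause of these shifts was not tested. With 1 sum left out, the lone sum of a class is assumed to vary like the others. Cycling cells of 1000 to 3000 UMIs could not be fitted (28 and 9 cells). Depth limits Cd40, Cd83, Sdc4, Traf1 and Ripk2 in neutrophils most.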
